A study of Mus musculus with 117 samples.

Results

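Histone H3 monomethylated at lysine 4 (H3K4me1) was compared between mouse embryonic stem (ES) cells and mouse embryonic fibroblasts (MEF) from the peak lists that the authors deposited for each cell type. The ES list held 12021 peaks and the MEF list 25401, together 37422 of the 563630 peaks in the 32 lists of the series. A peak was called shared where it overlapped a peak of the other list by at least 1 bp, and cell-specific otherwise. The ES cells were wild type, at passages 15 to 20, and the MEF were wild type, from E13.5 embryos, at passage 1. Both were immunoprecipitated with the same antibody (Abcam ab8895) in duplicate. H3K27ac, H3K4me3, H3K27me3, H3K9me3 and the small modifiers SUMO-1 and SUMO-2 were profiled in the same wild-type cells. Cells at day 4 of reprogramming (D4) were read only at these sites. They were E13.5 MEF, at passage 1, that had expressed OKSM, the factors Oct4, Klf4, Sox2 and c-Myc, for 4 days, with a hairpin against Ubc9, the enzyme that conjugates SUMO (shUbc9), or with a control hairpin (shCtrl). RNA was available for ES cells with a control small interfering RNA (siCtrl) and for MEF with the control hairpin, 3 libraries each.

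H3K4me1 is placed by the methyltransferases KMT2C and KMT2D and is best known as a mark of enhancers. Enhancers that also carry H3K27ac, an acetylation placed by EP300 and CREBBP, are usually described as active, and those without it as primed. At promoters, H3K4me1 typically lies on the flanks of the trimethylated form, H3K4me3, while H3K27me3 and H3K9me3 belong to Polycomb-repressed chromatin and to heterochromatin. Enhancers differ between cell types more than promoters do, and ES cells and fibroblasts are the end points between which reprogramming factors move a cell.

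Each deposited list merges both replicates of 1 antibody, so no value from the peak lists has a spread between replicates and none could be tested. Shares are given with 95% Wilson intervals, which cover counting error alone. The read depth behind the lists is not known. The lists reach down to different strengths, a −log10 p of 15 in ES cells and 16 in MEF, so a site missing from a list may still carry a weaker signal. Peaks could not be tied to genes here, because no annotation of the build of the files, mm9, was used.

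H3K4me1 peaks were mostly listed in 1 cell type and not in the other. Of the ES peaks, 1449 (12.1%, interval 11.5 to 12.6%) were shared with MEF and 10572 were ES-specific. Of the MEF peaks, 1474 (5.80%, interval 5.52 to 6.10%) were shared with ES cells and 23927 were MEF-specific. The lists covered 16.3 Mb in ES cells and 30.5 Mb in MEF, with 1.71 Mb in common, or 10.5% of the ES bases and 5.59% of the MEF bases. When the MEF list was shortened by score to the length of the ES list, the shared share of ES peaks was 5.94% and that of MEF peaks 5.86%.

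As deposited, the lists of promoter and acetylation marks overlapped far more between the same cells. For H3K4me3, the mark of active promoters, 51.9% of ES peaks and 93.5% of MEF peaks were shared. For H3K27ac the shares were 46.0% of ES peaks and 33.2% of MEF peaks. H3K27me3 had 44.4% of ES peaks and 17.9% of MEF peaks in common. The shares of H3K4me1 lay nearer to those of H3K9me3, at 13.2% of ES peaks and 9.84% of MEF peaks, and of the SUMO lists. SUMO-1 shared 9.24% of ES and 9.16% of MEF peaks, and SUMO-2 shared 8.33% of ES and 10.0% of MEF peaks. These lists are of unlike length and end at unlike strengths. H3K4me3 had 26309 ES peaks down to a −log10 p of 22.0 and 15052 MEF peaks down to 53.0. H3K27ac had 25273 ES and 37379 MEF peaks, against 12021 and 25401 for H3K4me1. The part of length and lower limit in the shares was not tested.

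Shared H3K4me1 peaks were seldom marginal contacts. They formed 1536 overlapping pairs with a median overlap of 981.5 bp, and the median pair covered 99.5% of its shorter peak. The overlap was under 100 bp in 17 pairs (1.11%). Summits, the positions of strongest signal in each peak, lay a median of 306 bp apart within a pair, and 980 pairs (63.8%) had them within 500 bp. The ES peak was the wider one in 958 pairs (62.4%). On the other side of the threshold, 47 ES-specific and 54 MEF-specific peaks ended within 100 bp of a peak of the other list, and 561 ES-specific (5.31%) and 575 MEF-specific peaks (2.40%) within 1 kb. The median distance to the nearest peak of the other list was 34.2 kb for ES-specific peaks and 94.2 kb for MEF-specific peaks.

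Cell-specific peaks were narrower than shared ones in both lists. The median width was 1131 bp (interval 1115 to 1146) for ES-specific peaks and 1437 bp (1382 to 1494) for shared peaks as called in ES cells. In MEF it was 1024 bp (1016 to 1034) for MEF-specific and 1231 bp (1196 to 1287) for shared peaks. Peaks over 2 kb made up 15.8% of the ES-specific and 28.5% of the shared ES peaks, and 11.6% of the MEF-specific and 19.3% of the shared MEF peaks. The shared share climbed with width, from 5.91% in the narrowest decile of ES peaks to 21.4% in the widest, and from 3.07% to 9.56% over the same deciles in MEF. A wide peak also offers more bases for an overlap, and the part this plays was not tested.

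**Figure D1:**
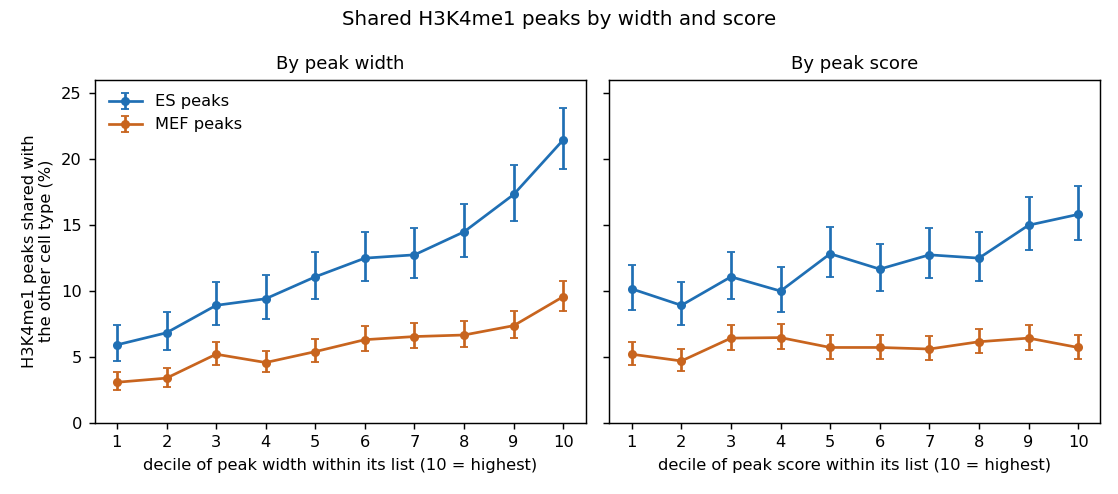
Share of H3K4me1 peaks (%, y axis) shared with the other cell type by decile of peak width (left) and of the authors' score (right) within each list; points are ES peaks (blue) and MEF peaks (orange), and bars are 95% Wilson intervals. In both lists the share climbs with width, to 21.4% of the widest ES peaks and 9.56% of the widest MEF peaks, while by score it climbs in ES peaks alone.

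Shared peaks ranked higher by score in ES cells, and hardly so in MEF. The authors' score is 10 times the −log10 p and is used here as a rank within its list. The median percentile was 49.0 for ES-specific and 56.6 for shared ES peaks, and 50.1 for MEF-specific and 50.5 for shared MEF peaks. In the lowest and the highest score decile, 10.1% and 15.8% of ES peaks were shared, against 5.20% and 5.71% of MEF peaks. Strength in the one cell type said little about strength in the other: over the 1536 pairs the Spearman correlation of the percentiles was 0.084, as a description, and 158 pairs (10.3%) were in the top quartile of both lists. Width and score were themselves weakly related, with Spearman correlations of 0.23 over ES peaks and 0.26 over MEF peaks.

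The highest scores among ES peaks belonged to unusual regions. The 5 top ES-specific peaks were chr4:146790312-146791819, chr8:73653802-73656078, chr13:3035727-3036694, chr4:146793986-146795761 and chr4:145699360-145700923 (mm9). All 5 were also listed in ES cells for H3K27ac, H3K9me3, SUMO-1 and SUMO-2, and all 5 for H3K9me3 in MEF. The first, with a score of 1366, was listed for all 6 other antibodies. Likewise 4 of the 5 top shared ES peaks lay on chromosome Y, and all 5 carried both H3K27ac and H3K27me3 as well as H3K9me3 and both SUMO proteins in both cell types. The fifth lay at chr11:88829095-88830877. The top peak of the MEF list, the shared chrY:2793933-2794814 (score 849), carried H3K27ac, H3K27me3, H3K9me3 and both SUMO proteins in MEF. So did chrY:2882942-2883839 and chr11:88829274-88830409, also among the 5 top shared MEF peaks. The rest of those 5, at chr15:54972380-54975051 and chr7:29730965-29741773, carried H3K27ac and neither H3K27me3 nor H3K9me3. Sites listed for both H3K27ac and H3K27me3 were few. They were 33 of all ES peaks, 17 of them on chromosome Y, and 12 of all MEF peaks, 7 of them on chromosome Y.

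Chromosome X was nearly empty of H3K4me1 peaks in both cell types. The ES list had 22 peaks there (0.183% of the list) and the MEF list 65 (0.256%), none of them shared. With 3 peaks taken as the upper limit of a count of 0, in place of a Wilson interval, this allows a shared share of up to 13.6% of the ES and 4.62% of the MEF peaks. In H3K27ac, chromosome X held 2.62% of the ES list and 2.04% of the MEF list, and in H3K4me3 2.98% and 3.30% of the ES and MEF lists. The D4 H3K4me1 lists had 5 peaks on it with shUbc9 and 2 with shCtrl. Leaving out both sex chromosomes gave a shared share of 11.98% of ES and 5.77% of MEF peaks.

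Strong MEF-specific peaks were of another kind. The 5 with the highest scores were chr14:69947516-69951928, chr14:70039404-70040274, chr6:146474760-146477026, chr6:129180539-129182654 and chr1:165489835-165491120. All 5 carried H3K27ac and SUMO-1 in MEF, 4 carried SUMO-2, none carried H3K27me3 or H3K9me3, and none overlapped any of the 6 other lists of ES cells. At the first, 4413 bp wide and with a score of 794, D4 cells had H3K27ac with either hairpin, and H3K4me1 in the shCtrl list alone.

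Among ES-specific peaks without H3K9me3, chosen after the values were seen, the top 3 were chr8:67587354-67588739, chr17:37130273-37134473 and chr2:177102944-177103972. They had scores of 556, 515 and 505, all carried H3K27ac in ES cells, and none met any of the 6 other lists of MEF. The second, 4201 bp wide, also had H3K4me3 and SUMO-2 in ES cells. At D4 it overlapped the H3K27ac, Oct4, Sox2 and Klf4 lists of shUbc9 cells and no list of shCtrl cells.

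The widest ES-specific peak spanned 12220 bp at chr8:34978916-34991135 and carried H3K27ac. The next, of 7609 bp at chr1:163847515-163855123, also had H3K27ac alone. The widest MEF-specific peak, 9105 bp at chr5:33679288-33688392, carried H3K27ac, H3K4me3, H3K9me3 and both SUMO proteins in MEF, and H3K4me3 in ES cells. The second, 8323 bp at chr11:75965390-75973712, had H3K27ac, H3K9me3 and both SUMO proteins.

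Some shared peaks were strong and wide in both lists. The widest as called in ES cells spanned 8007 bp at chr2:152634077-152642083, with H3K27ac in both cell types. The widest as called in MEF, 10809 bp at chr7:29730965-29741773, stood at percentile 99.3 of the ES scores where it met the ES list. It carried H3K27ac in both cell types and SUMO-1 and SUMO-2 in MEF alone. Both D4 lists of H3K4me1 and of H3K27ac included it. A strong MEF peak at chr15:54972380-54975051, score 627, overlapped an ES peak at percentile 95.4 of its list and carried H3K27ac, and no SUMO, in both cell types.

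H3K27ac accompanied most H3K4me1 peaks, to nearly the same degree in the whole lists of both cell types. It overlapped 59.1% (58.2 to 60.1%) of ES-specific and 63.8% (61.3 to 66.2%) of shared ES peaks, and 58.5% (57.8 to 59.1%) of MEF-specific and 64.2% (61.7 to 66.6%) of shared MEF peaks. Its share grew with the H3K4me1 score. In the lowest and the highest score quintile, 49.4% and 76.7% of ES-specific peaks carried H3K27ac, and 37.4% and 87.2% of MEF-specific peaks. With the MEF list shortened to the ES length, 74.4% of MEF-specific peaks had it, so the likeness depended on the length of the H3K4me1 lists. The H3K27ac lists held 25273 peaks in ES cells and 37379 in MEF, and the part of this in the shares was not tested.

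H3K4me3 separated the 2 cell types. It overlapped 21.2% (20.4 to 21.9%) of ES-specific peaks, against 3.29% (3.07 to 3.53%) of MEF-specific peaks. Among shared peaks, 25.3% carried it in ES cells and 17.4% in MEF. The difference between ES-specific and shared ES peaks turned round, to 3.81 percentage points more in ES-specific peaks, when the H3K4me1 lists were of equal length. The H3K4me3 lists themselves differed in length, with 26309 peaks in ES cells and 15052 in MEF, and the part of this in the shares was not tested. Seen the other way, sharing of H3K4me1 differed most by H3K4me3 in MEF: 24.6% of MEF peaks with H3K4me3 were shared with ES cells, against 5.09% of those with H3K27ac and no H3K4me3 and 4.87% of those with neither. In ES cells the same shares were 14.1%, 12.01% and 10.9%.

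The repressive marks were rare at H3K4me1 peaks. H3K27me3 overlapped 95 ES-specific peaks (0.899%) and 18 MEF-specific peaks (0.0752%), and H3K9me3 overlapped 170 ES-specific (1.61%) and 351 MEF-specific peaks (1.47%). H3K27ac without H3K4me3 or H3K27me3, the combination usual at active enhancers, was found at 41.3% of ES-specific and 55.5% of MEF-specific peaks. None of the 4 other histone marks was listed at 36.9% of ES-specific and 40.8% of MEF-specific peaks. Such peaks had lower H3K4me1 scores, with median percentiles of 40.3 in ES-specific and 33.6 in MEF-specific peaks, against 61.1 in ES-specific and 64.1 in MEF-specific peaks with H3K27ac and no H3K4me3.

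**Figure D2:**
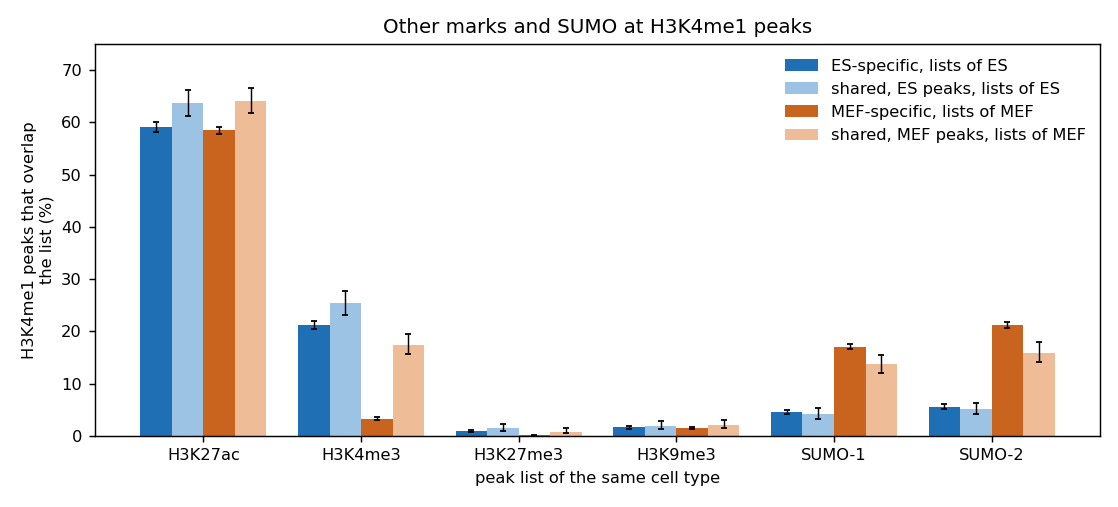
Share of H3K4me1 peaks (%, y axis) that overlap each peak list of the same cell type (x axis), for ES-specific and shared peaks in ES cells (blue) and for MEF-specific and shared peaks in MEF (orange); bars start at 0 and error bars are 95% Wilson intervals. H3K27ac stands near 60% in all 4 classes, H3K4me3 is lowest at MEF-specific peaks, and both SUMO lists are higher in both MEF classes than in both ES classes.

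Where the peaks overlapped, H3K27ac lay nearer to the H3K4me1 summit than H3K4me3 did. Summits of H3K4me1 and H3K27ac lay a median of 480.5 bp apart at ES-specific peaks and 104 bp apart at MEF-specific peaks, and were within 200 bp of each other in 37.3% of ES-specific and 59.0% of MEF-specific overlaps. Summits of H3K4me3 were a median of 1010.5 bp away at ES-specific and 944 bp away at MEF-specific peaks, and within 200 bp in 5.55% of ES-specific and 4.19% of MEF-specific overlaps. H3K27ac covered a median of 100% of the ES-specific and 99.6% of the MEF-specific peaks that it touched. H3K4me3 covered 68.0% of ES-specific and 72.9% of MEF-specific peaks that it touched.

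SUMO met H3K4me1 far more often in MEF than in ES cells. SUMO-1 or SUMO-2 was listed in ES cells at 6.44% (5.99 to 6.93%) of ES-specific and 5.94% (4.83 to 7.27%) of shared peaks. In MEF it was listed at 24.0% (23.4 to 24.5%) of MEF-specific and 18.5% (16.6 to 20.5%) of shared peaks. The SUMO lists were of similar length, with 12339 SUMO-1 and 12014 SUMO-2 peaks in ES cells and 12408 SUMO-1 and 9979 SUMO-2 peaks in MEF. With H3K4me1 lists of equal length the shares were 6.38% of ES-specific and 33.4% of MEF-specific peaks. Most such peaks met both proteins: 388 of 681 SUMO-positive ES-specific peaks (57.0%) and 3405 of 5737 SUMO-positive MEF-specific peaks (59.4%).

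The same contrast held from the side of SUMO. Of the SUMO-2 peaks, 5.08% overlapped H3K4me1 in ES cells and 50.1% did so in MEF. Of the SUMO-1 peaks, 4.05% overlapped it in ES cells and 33.1% in MEF. Against the MEF list shortened to the ES length, these MEF shares were 34.9% for SUMO-2 and 23.3% for SUMO-1.

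Within each cell type SUMO was concentrated at the strongest and at the acetylated H3K4me1 peaks. In the lowest and the highest score quintile, 3.54% and 11.9% of ES-specific peaks carried SUMO, and 12.6% and 45.0% of MEF-specific peaks. ES-specific peaks with H3K27ac had SUMO in 9.30% of cases and those without it in 2.31%. MEF-specific peaks with H3K27ac had SUMO in 34.9% of cases and those without it in 8.66%. Peaks with SUMO were also wider, with medians of 1357 bp with and 1119 bp without SUMO among ES-specific peaks, and 1295 bp with and 954 bp without it among MEF-specific peaks. Score, width and acetylation moved together here, and their separate parts were not tested. SUMO-2 summits lay a median of 547 bp from the H3K4me1 summit at ES-specific peaks and 359 bp from it at MEF-specific peaks.

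**Figure D3:**
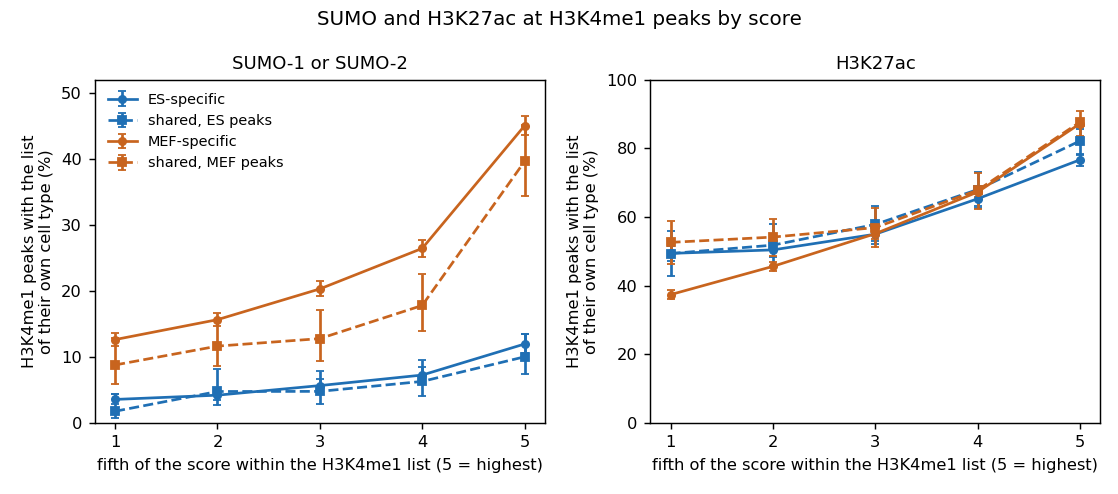
Share of H3K4me1 peaks (%, y axis) that overlap SUMO-1 or SUMO-2 (left) or H3K27ac (right) of the same cell type, by quintile of the authors' H3K4me1 score within the list (x axis, 5 is highest); solid lines are cell-specific and dashed lines shared peaks, blue for ES cells and orange for MEF, with 95% Wilson intervals. SUMO reaches 11.9% of ES-specific and 45.0% of MEF-specific peaks in the top quintile, while H3K27ac reaches 76.7% of ES-specific and 87.2% of MEF-specific peaks.

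Cell-specific H3K4me1 peaks were mostly blank in the other cell type. Of ES-specific peaks, 80.7% overlapped none of the 6 other lists of MEF, and of MEF-specific peaks, 94.95% overlapped none of those of ES cells. H3K27ac of MEF covered 11.7% of ES-specific peaks, and H3K27ac of ES cells 3.36% of MEF-specific peaks. H3K4me3 of MEF was at 11.2% of ES-specific peaks, and 94.4% of these carried H3K4me3 in ES cells too. H3K4me3 of ES cells was at 2.76% of MEF-specific peaks, of which 78.3% also had it in MEF. H3K27me3 of MEF was at 2.54% of ES-specific peaks, against 0.899% for H3K27me3 of ES cells at the same peaks. The H3K27me3 list of MEF was the longer, with 11276 peaks over 18.4 Mb, against 5237 peaks over 8.04 Mb in ES cells. The part of this in the 2 shares was not tested. SUMO of the other cell type was at 2.15% of ES-specific and 0.731% of MEF-specific peaks.

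At shared H3K4me1 peaks the other marks could still differ between the cells. Of the 1449 shared ES peaks, 44.4% carried H3K27ac in both cell types, 19.4% in ES cells alone, 19.3% in MEF alone and 16.9% in neither. H3K4me3 was in both at 16.5%, in ES cells alone at 8.83% and in MEF alone at 1.86%. SUMO was in both at 2.90%, in ES cells alone at 3.04% and in MEF alone at 14.6%, so the higher share in MEF was also seen where both cells had H3K4me1. One such site, the shared peak at chr7:97171765-97175557, score 484 and chosen after the values were seen, had H3K27ac in both cell types and both SUMO proteins in MEF alone.

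H3K4me1 peaks lay closer together in MEF, the longer list. Peaks were joined into clusters where neighbours lay within 10 kb. Clusters of 3 or more held 32.0% of ES-specific and 38.9% of shared ES peaks, and 42.8% of MEF-specific and 43.2% of shared MEF peaks. Of 940 such clusters in ES cells, 613 (65.2%) had no shared peak, and of 2339 in MEF, 1975 (84.4%) had none. Clustered peaks carried H3K27ac more often than peaks standing alone, with 71.5% against 48.6% of ES-specific and 69.3% against 45.0% of MEF-specific peaks. They carried SUMO in 8.24% against 5.37% of ES-specific and in 26.9% against 19.3% of MEF-specific peaks.

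By day 4 of reprogramming, shared sites were those most often listed for H3K4me1. With shUbc9, 41.8% of shared ES peaks overlapped the D4 list, and with shCtrl 35.1%. Of ES-specific peaks, 7.55% (7.06 to 8.07%) were listed with shUbc9 and 4.87% (4.48 to 5.30%) with shCtrl. They included 482 peaks listed with shUbc9 alone, 199 with shCtrl alone and 316 with both. Of MEF-specific peaks, 18.1% (17.6 to 18.6%) were listed with shUbc9 and 20.2% (19.6 to 20.7%) with shCtrl. Most peaks of the D4 lists overlapped neither the ES nor the MEF list, with 57.5% of 13913 shUbc9 peaks and 56.9% of 13633 shCtrl peaks.

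The order of the hairpins at MEF-specific sites depended on where the D4 lists end. The shUbc9 list stops at a −log10 p of 40 and the shCtrl list at 35, and 8958 shCtrl peaks reach 40. From that common floor, MEF-specific peaks were listed in 18.1% of cases with shUbc9 and 14.9% with shCtrl, so the difference changed sign. At ES-specific peaks the shares were then 7.55% with shUbc9 and 3.06% with shCtrl. At shared ES peaks they were 41.8% with shUbc9 and 26.1% with shCtrl. This floor removed shCtrl peaks alone, so the shCtrl shares could only fall. The order at ES-specific and shared ES peaks therefore could not change. With D4 lists of equal length, the difference was 2.54 percentage points at ES-specific and −2.36 at MEF-specific peaks. No replicate spread is available for any of these shares.

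MEF-specific peaks with H3K27ac in MEF were listed at D4 more often than those without it. Those with H3K27ac were listed for H3K4me1 at D4 in 23.9% of cases with shUbc9 and 27.6% with shCtrl. Those without it were listed in 9.91% of cases with shUbc9 and 9.71% with shCtrl. MEF-specific peaks with SUMO in MEF were listed in 26.7% with shUbc9 and 30.5% with shCtrl, and those without SUMO in 15.4% with shUbc9 and 16.9% with shCtrl. Those with SUMO had a median score percentile of 69.1, against 44.6 without, and 85.0% of them carried H3K27ac, against 50.1%. The separate parts of score, H3K27ac and SUMO were not tested. All shares in this paragraph use the D4 lists as deposited, without a common floor. Among ES-specific peaks, those that carry SUMO in ES cells were listed in 4.41% of cases with shUbc9 and 1.62% with shCtrl, and those without SUMO in 7.76% with shUbc9 and 5.10% with shCtrl.

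The reprogramming factors were listed at ES-specific H3K4me1 peaks more often than D4 H3K4me1 was, in lists of unlike length. The D4 H3K4me1 lists, with 13913 shUbc9 and 13633 shCtrl peaks, were shorter than every factor list and ended at a higher −log10 p. The Klf4 lists held 37505 peaks with shUbc9 and 34163 with shCtrl. The part of list length in this order was not tested. Oct4, the pluripotency factor encoded by Pou5f1, was at 16.2% of ES-specific peaks with shUbc9 and 9.93% with shCtrl. Its partner Sox2 was at 16.3% with shUbc9 and 9.61% with shCtrl, and Klf4 at 19.4% with shUbc9 and 15.8% with shCtrl. At MEF-specific peaks Oct4 was at 10.4% with shUbc9 and 9.35% with shCtrl, Sox2 at 12.1% and 10.1% with shUbc9 and shCtrl, and Klf4 at 15.4% and 16.8%. The Oct4 and Sox2 lists were longer with shUbc9, at 23477 Oct4 and 27514 Sox2 peaks, than with shCtrl, at 16740 and 20197. With lists of equal length, the Oct4 and Sox2 differences at MEF-specific peaks turned to −1.78 and −1.72 percentage points. From a common floor of the −log10 p, the Oct4 and Sox2 differences there were 3.68 and 4.55 points, and the Klf4 difference turned to 0.393. At ES-specific peaks the Oct4 and Sox2 differences were 3.01 and 3.29 points with lists of equal length. From the common floor they were 8.38 and 8.30 points. That floor removed shCtrl peaks alone from the Oct4, Sox2 and Klf4 lists, so these differences could only rise. ES-specific peaks listed for H3K4me1 with shUbc9 alone had Oct4, Sox2 or Klf4 of the shUbc9 cells in 65.4% of cases and of the shCtrl cells in 60.2%. Those listed with shCtrl alone had a factor of the shUbc9 cells in 52.3% and of the shCtrl cells in 50.3% of cases. Those listed in both had one in 74.4% and 69.9% of cases with shUbc9 and shCtrl, and those listed in neither in 20.7% and 15.3%.

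**Figure D4:**
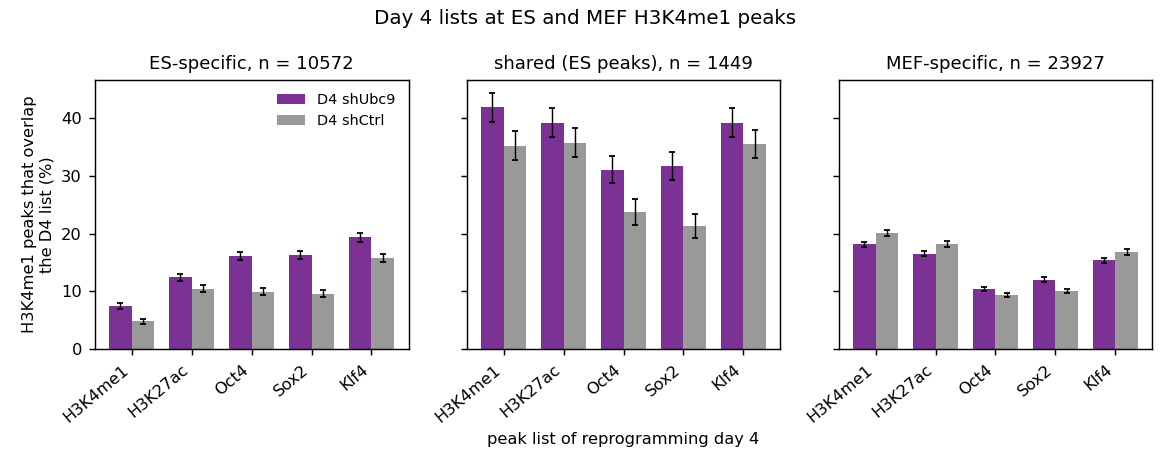
Share of ES-specific (left), shared (middle) and MEF-specific H3K4me1 peaks (right) that overlap each peak list of reprogramming day 4 (%, y axis), for shUbc9 (purple) and shCtrl (grey); bars start at 0 and error bars are 95% Wilson intervals. ES-specific and shared peaks are met more often by all 5 shUbc9 lists than by the shCtrl lists, while at MEF-specific peaks the order differs between lists, 18.1% with shUbc9 and 20.2% with shCtrl for H3K4me1.

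RNA of the enzymes that write and erase H3K4 methylation was mostly higher in ES cells. Gene counts were 39.9 to 54.0 M per library. The labels do not say whether replicates were separate cultures, so a p-value here covers no more than the spread among the libraries, which may be technical. In edgeR's quasi-likelihood test with Benjamini-Hochberg adjustment, 16418 of 18149 genes (90.5%) passed an adjusted p of 0.05, 47.7% higher and 42.8% lower in ES cells, so passing the test is the rule here. Of 6 genes of the H3K4me1 writer complex, 5 were higher and 1, Ncoa6, did not pass, with a median log2 fold change of 1.40 beside 0.13 over all genes tested. Ncoa6, named after its values were seen, had a log2 fold change of 0.43 ± 0.22 (SE, edgeR adjusted p = 0.0866), and it passed with library sizes alone (adjusted p = 0.0176) or without ES replicate 1 (adjusted p = 0.0202). All 4 core subunits common to these methyltransferases were higher, with a median of 2.21. Of 7 H3K4me3 writer genes, 6 were higher and 1 lower. One of the 6, Cxxc1, at 0.18 ± 0.06 on the log2 scale (SE, edgeR adjusted p = 0.0212), lost its call without any 1 of the MEF libraries (adjusted p = 0.388, 0.0856 and 0.0887) and without ES replicate 3 (adjusted p = 0.0703). Of 6 H3K4 demethylase genes, 4 were higher and 2 lower. In bulk RNA, fewer cells of a type and less RNA per cell cannot be told apart.

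Kmt2c, which encodes one of the main H3K4me1 methyltransferases, had 277, 381 and 309 CPM in ES cells, against 74.8, 49.8 and 76.7 CPM in MEF. The groups did not overlap, and the log2 fold change was 2.27 ± 0.16 (SE, edgeR adjusted p = 9.96e-08). Its relative Kmt2d spread widely, with 119, 338 and 220 CPM in ES cells and 83.2, 34.9 and 77.5 CPM in MEF, and a log2 fold change of 1.80 ± 0.37 (SE, edgeR adjusted p = 0.000702). Kdm6a, the H3K27 demethylase of the same complex, averaged 149.9 ± 4.08 CPM in ES cells and 51.6 ± 3.62 CPM in MEF (SD, n = 3 each). Paxip1, which encodes the complex member PTIP, averaged 72.3 ± 5.42 CPM in ES cells and 30.3 ± 1.84 CPM in MEF. The spread of Kmt2d was not its own. Among others, Kmt2c, Ncoa6, Kmt2a, Kmt2b, Setd1a and Setd1b also had ES replicate 2 highest and MEF replicate 2 lowest. In the core subunits Wdr5, Rbbp5, Ash2l and Dpy30, ES replicate 2 was instead the lowest. These genes were named after the values were seen, and the cause was not tested.

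Among H3K4me3 writers, Wdr82, a subunit of the SET1 complexes, was higher in ES cells by 0.70 ± 0.06 and the methyltransferase Setd1a by 1.87 ± 0.19 on the log2 scale (SE). Men1, a subunit of the KMT2A and KMT2B complexes, fell by 0.25 ± 0.06 (edgeR adjusted p = 0.00130), and with library sizes alone it no longer passed, with an adjusted p of 0.0956. The demethylase genes Kdm5b, which acts on H3K4me3 and H3K4me2, and Kdm1a, which acts on H3K4me2 and H3K4me1, were both higher. Kdm5b had 924, 968 and 942 CPM in ES cells, against 216, 209 and 219 CPM in MEF. Kdm1a had 432, 397 and 413 CPM in ES cells, against 136, 138 and 136 CPM in MEF. Kdm5d, a Y-linked demethylase gene, had 2.83, 2.69 and 2.80 CPM in ES cells, against 23.7, 23.9 and 24.8 CPM in MEF. Kdm1b had 34.3, 32.0 and 31.8 CPM in ES cells and 34.3, 38.02 and 38.6 CPM in MEF, and its call was lost in 5 of the 10 alternatives.

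**Figure D5:**
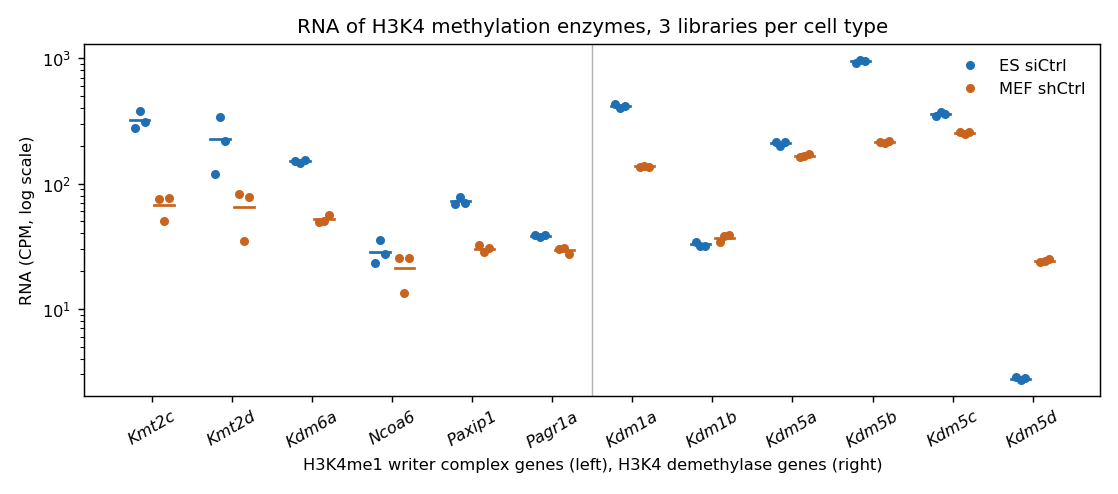
RNA (CPM, log-scaled y axis) of 6 genes of the H3K4me1 writer complex (left of the line) and 6 H3K4 demethylase genes (right) in 3 ES siCtrl libraries (blue) and 3 MEF shCtrl libraries (orange); points are libraries and short lines group means. Kmt2c, Kdm6a, Kdm1a and Kdm5b are higher in all ES libraries, and Kdm5d is lower, near 2.77 CPM in ES cells and 24.1 CPM in MEF.

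The marker genes followed the labelled cell types. All 14 pluripotency genes were higher in ES cells, with a summed level of 4368 to 4703 CPM in ES cells and 15.8 to 19.1 CPM in MEF. All 14 fibroblast genes were lower in ES cells, with a sum of 103 to 120 CPM in ES cells and 24642 to 29920 CPM in MEF. Of 6 macrophage genes, 2 were higher and 4 lower in ES cells, with sums of 45.3 to 50.6 CPM in ES cells and 38.3 to 52.4 CPM in MEF. The 2 higher ones were Cd68, at 42.1 ± 2.57 CPM in ES cells and 7.94 ± 1.22 CPM in MEF, and Itgam, at 4.94 ± 0.284 CPM in ES cells and 3.45 ± 0.704 CPM in MEF (SD, n = 3 each). The 4 lower ones were Adgre1, Csf1r, Ptprc and Aif1, of which Adgre1, a defining macrophage gene, was at 0 in all ES libraries and at 11.97 to 16.8 CPM in MEF. Of 6 epithelial genes, 4 were higher and 1 lower in ES cells, with sums of 589 to 596 CPM in ES cells and 14.6 to 16.8 CPM in MEF. The ES sum was mostly Cdh1, at a mean of 425 CPM, and Epcam, at 154 CPM. The keratin genes Krt8, Krt18, Krt14 and Krt5 averaged 5.47, 7.29, 0.612 and 0.225 CPM in ES cells. In MEF they averaged 4.14, 7.66, 3.51 and 0.00785 CPM. Of 3 endothelial genes tested, 2 were higher and 1 lower, with sums of 69.3 to 72.7 CPM in ES cells and 11.7 to 13.2 CPM in MEF. The 2 higher ones were Pecam1, at 46.8 CPM in ES cells and 0.109 CPM in MEF, and Tek, at 23.2 and 6.60 CPM. Kdr was lower, at 1.11 CPM in ES cells and 5.55 CPM in MEF, and Cdh5 was not tested. The part of other cell types in the peak lists was not tested.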

How the data were processed

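ChIP-seq peaks were used as deposited: 1 list per antibody and condition, made from both replicates per the labels of the series, on build mm9. Per the submitters' processing notes, Bowtie, bedtools 2.19.1 and MACS2 were used. No source used here gives the caller's threshold or settings. The authors deposited a score per peak, a fold over background and a −log10 p, and the score was found to be 10 times the −log10 p, rounded down. Scores served as ranks within a list, folds were not compared. Repeated lines were dropped. Overlaps of at least 1 bp were counted with Python 3.11.15 and checked against bedtools 2.31.1 on simulated intervals. Coordinates are 1-based.

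The authors deposited raw read counts per gene or repeat family (STAR 2.5.0a and featureCounts, per the submitters' processing notes). No source used here gives the strand setting or the annotation. Repeat families, 8.60 to 24.7% of counts, stayed out of library sizes. Symbols came from a GRCm38 name table, which matched 24191 of 26301 genes. ES siCtrl and MEF shCtrl were compared in R 4.3.3 with edgeR 4.0.16 (filterByExpr, TMM, quasi-likelihood, two-sided), tested on simulated data. DESeq2 1.42.0 was an alternative. CPM are scaled by effective library size. The SE of a log2 fold change was derived as its absolute value divided by the square root of the quasi-likelihood F.

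Regions named are the 5 highest scores and 2 widest per class, as far as they add to the text, none on chromosome 18. Genes named are Kmt2c, Kmt2d, Kdm6a, Kdm1a, Kdm5b and up to 2 rises and 2 falls of smallest p per enzyme list. Members and lists were chosen with earlier results of these data known.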

Additional observations from a re-analysis of the deposited data

How the results depend on the processing

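The shared share was 11.3% of ES and 5.46% of MEF peaks when an overlap had to cover 50% of the shorter peak. It was 16.7% and 8.05% of ES and MEF peaks when peaks within 1 kb also counted, 7.32% and 3.50% in the higher-scoring 50% of each list, 13.0% and 6.46% with peaks within 1 kb merged, and 5.94% of ES peaks with lists of equal length. H3K27ac at ES-specific peaks was at 57.9% with the stricter overlap, 66.2% within 1 kb, 68.3% in the higher-scoring 50%, 57.1% with merged peaks, and 36.1% against the higher-scoring 50% of the H3K27ac list. At MEF-specific peaks it was at 65.1% within 1 kb, 73.3% in the higher-scoring 50%, 74.4% with lists of equal length, 56.4% with merged peaks, and 30.9% against the stronger H3K27ac list. SUMO at ES-specific peaks was at 5.09% with the stricter overlap, 11.2% within 1 kb, 8.83% in the higher-scoring 50%, and 2.90% against the stronger SUMO lists. At MEF-specific peaks it was at 22.3%, 33.9%, 32.4% and 13.6% in the same 4 settings, 33.4% with lists of equal length and 26.3% with merged peaks.

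The D4 difference for H3K4me1 (shUbc9 minus shCtrl) at ES-specific peaks was 3.93 points in the higher-scoring 50%, 1.71 against the stronger D4 lists and 4.48 from a common floor. At MEF-specific peaks it was −0.878 against the stronger D4 lists and turned to 3.19 from a common floor. Other reversals were H3K4me3 at ES-specific minus shared ES peaks (3.81 points, lists of equal length), D4 Oct4 and Sox2 at MEF-specific peaks (−1.78 and −1.72, D4 lists of equal length) and D4 Klf4 there (0.393, common floor). The common floor, the D4 lists of equal length and the setting without sex chromosomes were added after seeing the data. The cause of these changes was not tested. The common floor removed shCtrl peaks alone from the D4 H3K4me1, Oct4, Sox2 and Klf4 lists, so those differences could only rise. D4 lists of equal length removed shUbc9 peaks alone from the same lists, so there the differences could only fall. For 30 differences, 280 values were recomputed over all settings and 272 kept their sign. Among them was the positive D4 H3K4me1 difference at ES-specific peaks from the common floor, which could not change sign. A kept sign does not mean a kept size. Beside the 5 reversals, SUMO at ES-specific minus shared ES peaks came to −0.066 points with lists of equal length and −0.0512 with merged peaks, and the score percentile of MEF-specific minus shared MEF peaks to 0 with lists of equal length.

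In RNA, leaving out 1 library gave 16185 to 16617 called genes. Library sizes alone shifted the median over tested genes to 0.27 on the log2 scale, from which changes are then read. Replicate numbers did not pair the libraries (correlations of deviations −0.16, −0.21 and 0.01), and the replicate block gave 16086 called genes. Over 25 enzyme genes, 238 alternatives kept the call, 10 lost it (Kdm1b, Cxxc1 and Men1) and 2 gained it (Ncoa6).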

Other observations

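Peak lists name sites that passed a threshold, and the lists compared here end at different strengths and come from unknown depths. A site absent from a list is not shown to lack H3K4me1. Each list merges its replicates, so shares have no replicate error.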
